A study of Mus musculus with 30 samples.

Results

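The 10 B16.IFNα4.gB.luc tumors of a series of 30 were ordered by how strongly they expressed the pigment genes Tyr and Tyrp1, and every other gene was related to that order. For each tumor the mean log2 CPM (counts scaled to library size) of the 2 genes was taken as its pigment score, and the tumors were placed from position 1, the lowest score, to position 10, the highest. The order was thus chosen by the measured levels of Tyr and Tyrp1, and their own values along it are a description without a test. Averaged over these tumors, 15952 genes reached 10 counts. All of them entered the fits and the adjustment of p values, and calls were counted over the 15950 other than Tyr and Tyrp1.

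B16 is a pigmented mouse melanoma line, and its cells were transduced with retroviruses that carried IFNα4 or IFNα9 with enhanced GFP, or GFP without an interferon gene. All 3 lines also carried glycoprotein B (gB) of herpes simplex virus with cyan fluorescent protein, and luciferase (luc) with puromycin resistance, and were sorted for both fluorescent proteins and selected with puromycin to give stable lines. The cells were inoculated subcutaneously into C57BL/6 mice and RNA was taken from whole tumors on day 8, 10 tumors per line, and each sample also held leukocyte and skin transcripts. The interferon genes were expressed from the retroviral vector in the tumor cells alone, and the labels number the tumors as biological replicates. Per the study's methods the mice were female and used as young adults.

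Tyrosinase, the product of Tyr, carries out the rate-limiting step of melanin synthesis, and Tyrp1 encodes a related melanosomal enzyme that acts later in the pathway. Both are classical targets of MITF, the master transcription factor of melanocytes, which binds E-box motifs in their promoters. Other genes of the pathway encode melanosome transporters and ion channels (Oca2, Slc45a2, Slc24a5), a melanosomal receptor (Gpr143) and the machinery that carries mature melanosomes along actin (Rab27a, Mlph, Myo5a).

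The totals of the 10 tumors ran from 15944776 to 19788383 counts. Transcripts of Ifna4, the transgene, were counted in all 10 tumors, from 81 to 188 counts per tumor, and had 0 counts in each of the other 20. No pair of the 45 pairs of these tumors looked like a single library deposited again, since the chi-square statistic of their counts was at least 14.5 per gene over 11458 genes. In whole-tumor RNA, fewer cells of a type and less RNA per cell cannot be told apart, and this applies to every level below.

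Tyr ran from 239 CPM in tumor 8 to 415 CPM in tumor 3, with a median of 312 CPM. Tyrp1 ran from 1703 CPM in tumor 8 to 2818 CPM in tumor 7, with a median of 2468 CPM. The 2 genes ranked the tumors almost alike, with a Spearman correlation (rho) of 0.98 between them. The pigment score rose from 9.32 in tumor 8 and 9.37 in tumor 10 through 9.61 in tumor 9, 9.64 in tumor 1, 9.72 in tumor 6, 9.87 in tumor 5 and 9.95 in tumor 4 to 10.02 in tumor 2, 10.04 in tumor 7 and 10.07 in tumor 3. Tumors 8 and 10 stood below the rest, and tumors 2, 7 and 3 lay close together at the upper end. The whole range was 0.75 on the log2 scale, or 1.68-fold. Scores spanned 1.46 in B16.IFNα9.gB.luc tumors, from 9.69 to 11.15, and 1.62 in B16.GFP.gB.luc tumors, from 10.82 to 12.44, and 1 tumor set the upper end of each, since without IFNα9 tumor 10 the scores ended at 10.58 and without GFP tumor 7 they spanned 0.96. The IFNα4 median, 9.79, was below those of 10.21 and 11.13, though the lower IFNα9 tumors overlapped the IFNα4 tumors.

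**Figure D1:**
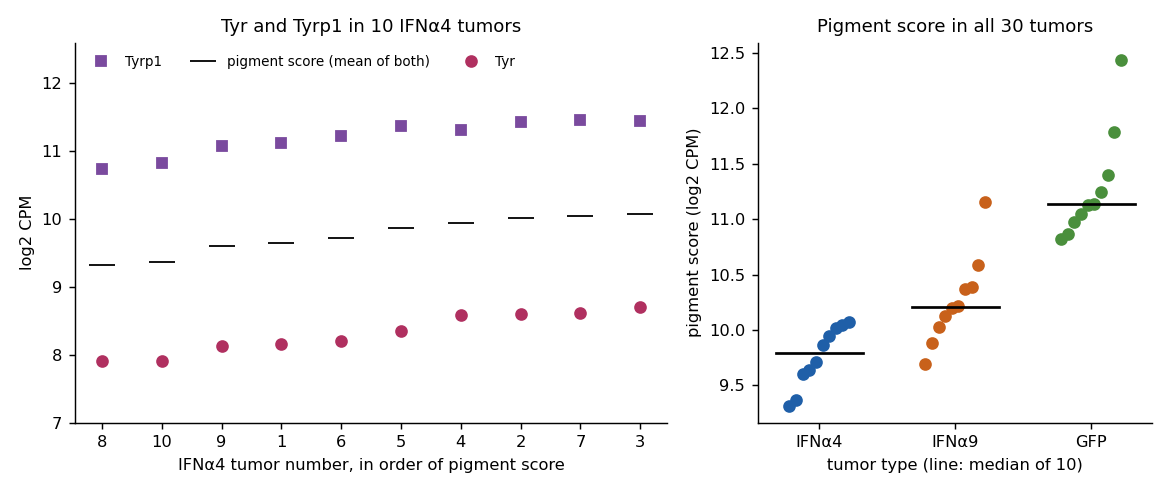
Left, log2 CPM of Tyr, of Tyrp1 and of their mean, the pigment score, in each of the 10 B16.IFNα4.gB.luc tumors, from the lowest to the highest score. Right, the pigment score of each of the 30 tumors, with the median of 10 as a line. The IFNα4 scores lie between 9.32 and 10.07, below every GFP tumor, the lowest of which is at 10.82.

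Few genes followed the order past a correction for all genes tested. With edgeR's quasi-likelihood test and Benjamini-Hochberg adjustment, 3 of 15950 genes rose along the order (0.0188%) and 0 fell (0.0%). The adjustment ran over all 15952 genes, and with Tyr and Tyrp1 taken out of it none of these 3 calls would pass. At an unadjusted p under 0.05 the same fit had 702 genes with a positive slope (4.4%) and 844 with a negative slope (5.29%). The exact permutation test of rho called 6 genes with a positive correlation (0.0376%) and 0 with a negative one (0.0%), against 687 (4.31%) and 639 (4.01%) genes at an unadjusted p under 0.05, or 8.31% of genes in either direction. Of the 6, Tcf12, Ddah1 and Fam206a would not pass with Tyr and Tyrp1 taken out of the adjustment. DESeq2 on the same order called 58 of the 15950 genes in each direction. Each refit without 1 tumor left 0 edgeR calls, whichever tumor was left out, and 0 to 2 positive calls of rho. With 9 tumors a gene in perfect order cannot pass the rank test after adjustment on its own. Tyr, with rho at 1, was in perfect order too and stayed in the adjustment, so such a gene could pass. How far the coarser rank test accounts for the lost rho calls was not tested. That limit does not apply to edgeR, where all 3 calls were lost in every refit.

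Epha7 and Map7d2 were called by both tests, in edgeR only with Tyr and Tyrp1 in the adjustment. Epha7 (chromosome 4 from 28813131 to 28967499 of GRCm38) encodes an ephrin receptor tyrosine kinase. It ran through 5.82, 7.11, 7.36, 9.76, 10.7, 9.94, 11.7, 13.04, 13.25 and 15.5 CPM from position 1 to position 10. Its level was thus lowest in tumor 8 and highest in tumor 3, with 1 exchange of neighbours. The fitted change from position 1 to position 10 was 1.29 ± 0.17 on the log2 scale (SE, edgeR, adjusted p = 0.0392), and rho was 0.99. Map7d2 (chromosome X from 159414572 to 159498757), a relative of microtubule-binding MAP7, ran from 8.75 CPM in tumor 8 to 20.5 CPM in tumor 3 with a median of 13.97 CPM. Its change was 1.12 ± 0.16 (SE, edgeR, adjusted p = 0.0392), with rho at 0.99. The third gene called by edgeR, the processed pseudogene Gm8451, lies outside the rule by which genes were named and is given because the count was so small. It had 4 to 7 counts in the 7 tumors at positions 1 to 7 and 362, 1879 and 751 counts in the 3 tumors at positions 8, 9 and 10. Its rho was 0.55, and in the other tumor types it had over 100 counts in 1 of 10 B16.IFNα9.gB.luc and 4 of 10 B16.GFP.gB.luc tumors and at most 9 in the rest, so its call rests on 3 libraries.

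The other 4 genes called by rho changed less. Myef2, a transcriptional repressor of the myelin basic protein gene, had rho at 0.99 (exact permutation test, adjusted p = 0.0220) and ran from 50.4 CPM in tumor 8 through a median of 60.6 CPM to 78.8 CPM in tumor 3. Tcf12, a basic helix-loop-helix partner of E-box-binding factors, had rho at 0.98 (adjusted p = 0.0418) and ran from 196 to 281 CPM with a median of 244 CPM. Ddah1, which breaks down methylated arginine, ran from 32.8 to 45.3 CPM, and Fam206a from 25.9 to 34.1 CPM, both with rho at 0.98. These 4 changed by 0.42 to 0.56 on the log2 scale across the order in edgeR, with adjusted p values of 0.20 to 0.31. They thus passed the rank test, as adjusted here, and missed the threshold in edgeR. DESeq2 called all 4 (adjusted p = 1.29e-05 for Tcf12, 0.000595 for Myef2, 0.0111 for Ddah1 and 0.0339 for Fam206a).

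**Figure D2:**
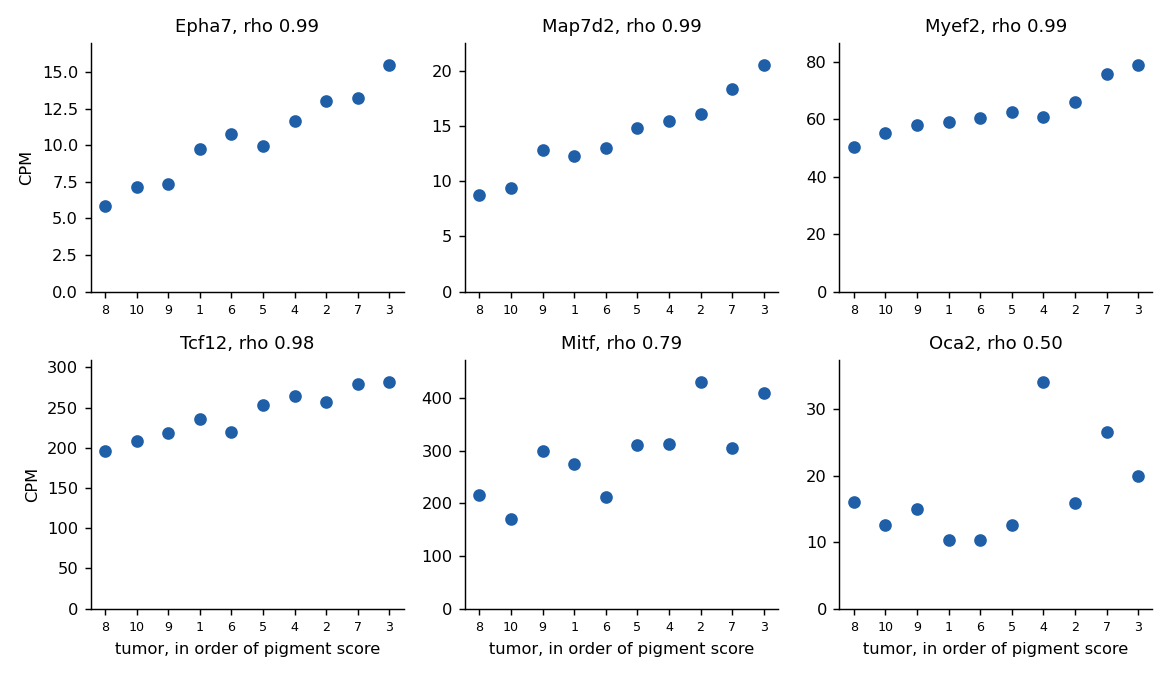
CPM of 6 genes in each B16.IFNα4.gB.luc tumor (1 point per tumor), placed from the lowest to the highest pigment score, with the axis from 0. Epha7, Map7d2, Myef2 and Tcf12 climb almost without exchange, Mitf climbs with more scatter between 171 and 429 CPM, and Oca2 peaks in tumor 4 at 34.0 CPM and in tumor 7 at 26.6 CPM.

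The genes with the most negative correlation were not called by edgeR or the rank test, while DESeq2 called those named here downward except Tmem50b. Epha1, another ephrin receptor, ran from 42.4 CPM in tumor 8 to 28.4 CPM in tumor 3 and had rho at −0.93 (adjusted p = 0.222 in the exact permutation test, 0.0139 in DESeq2). Hlf, a circadian-output transcription factor, had rho at −0.92 and a change of −0.76 ± 0.15 (SE, edgeR, adjusted p = 0.2165). Bmp4, a secreted growth factor, and Nfix, a nuclear factor of stem cells and epithelia, both had rho at −0.89, with changes of −0.87 and −0.46. Aldh3b3 and Il20rb, a receptor chain for the IL-20 family, also lay between −0.93 and −0.89. Tmem50b had rho at −0.93 with a change of only −0.18 ± 0.10 (SE, edgeR, adjusted p = 0.588).

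Of 25 listed genes of the melanosome and of pigment synthesis, 18 besides Tyr and Tyrp1 were tested. Their median rho was 0.48, against −0.01 over all genes tested, and 15 of 18 were positive. None was called after adjustment by edgeR, and 8 had a positive slope at an unadjusted p under 0.05 (against 4.4% of all genes) and 0 a negative one. DESeq2 called Myo5a and Rab38, and 0 of the list downward, against 58 of all 15950 genes in each direction. Myo5a, the motor that carries melanosomes, ran from 198 CPM in tumor 8 to 347 CPM in tumor 7, with a median of 267 CPM and rho at 0.87. Its change across the order was 0.69 ± 0.15 (SE, edgeR, adjusted p = 0.2634, unadjusted p = 0.00058). Rab38, which routes Tyr and Tyrp1 to melanosomes, ran from 75.6 to 124 CPM with a median of 93.8 CPM and rho at 0.85, and Rab27a, which links melanosomes to the motor, from 69.0 to 130.05 CPM with a median of 94.7 CPM and rho at 0.83. Gpnmb, a melanosomal matrix glycoprotein that macrophages also make, and Sytl2 both had rho at 0.68. Mlph, the adaptor between Rab27a and Myo5a, had rho at 0.42, and Rab32 and Mreg, also of melanosome traffic, had 0.47 and 0.18. At the other end, Bloc1s3, Hps1 and Hps4, subunits of the complexes that build lysosome-related organelles, had rho at −0.68, −0.42 and −0.36.

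Oca2, Slc45a2, Slc24a5, Trpm1 and Gpr143 ranked the tumors differently from Tyr and Tyrp1. Oca2 ran from 10.3 CPM in tumor 6 to 34.0 CPM in tumor 4 with a median of 15.4 CPM and had rho at 0.50 with the Tyr and Tyrp1 order. Slc45a2 (93.5 to 178 CPM) had rho at 0.70, Slc24a5 (61.9 to 129 CPM) at 0.49, Trpm1, a cation channel gene (85.7 to 192 CPM), at 0.43, and Gpr143 (3.18 to 9.39 CPM) at 0.30. Among themselves, however, these 5 genes, set apart after their values were seen, had a rho of 0.77 to 0.96 in their 10 pairs, with a median of 0.93. Other pigment genes varied in which of the 2 orders they were nearer to. Rab38 had rho at 0.85 with Tyr and 0.56 to 0.93 with the 5 genes, highest with Slc45a2 and 0.76 with Oca2. Atp7a, a copper transporter gene, had −0.25 with Oca2 and 0.52 with Tyr. Mreg had 0.72 with Oca2 and 0.18 with Tyr, and Tspan10, a tetraspanin gene, 0.67 and 0.09. All 5 were highest in tumors 4 and 7 and among the lowest 3 in tumors 1 and 6, which stood at positions 4 and 5 for Tyr and Tyrp1. Tumor 8, the lowest for Tyr and Tyrp1, was at position 7 for their mean, at 5.42 log2 CPM against 6.05 in tumor 4 and 4.86 in tumor 1. The mean of the 5 genes and the pigment score had a rho of 0.45 in the IFNα4 tumors. The same rho was 0.93 in B16.IFNα9.gB.luc tumors and 0.87 in B16.GFP.gB.luc tumors, and 0.82 without GFP tumor 7, which had the highest score of the series. The difference between these values was not tested, each is over 9 or 10 tumors, and the slopes of the 5 genes on the score did not pass a test of difference between tumor types (edgeR, adjusted p of 0.297 to 0.997).

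**Figure D3:**
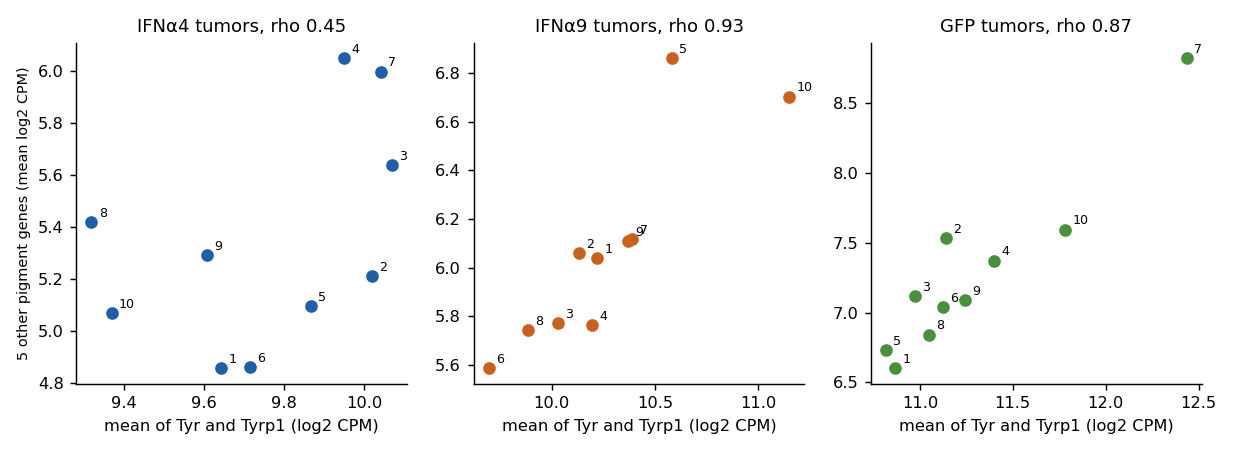
Mean log2 CPM of Oca2, Slc45a2, Slc24a5, Gpr143 and Trpm1 against the pigment score, the mean log2 CPM of Tyr and Tyrp1, 1 point per tumor with its number, in each tumor type. In the IFNα4 panel tumors 4 and 7 lie highest and the rho is 0.45, while the IFNα9 panel (0.93) and the GFP panel (0.87) show the 2 means rising together.

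When the IFNα4 tumors were ordered by Slc45a2 and Oca2 instead, edgeR called 18 other genes upward and 1 downward, and Epha7 and Map7d2 were no longer called. Trpm1 changed by 1.16 ± 0.14 (SE, edgeR, adjusted p = 0.0055) and Slc24a5 by 1.00 ± 0.14 (adjusted p = 0.0110) along that order. The glutathione transferase genes Gsta1 and Gsta2 changed by 1.32 and 1.33, with Gsta1 between 46.1 CPM in tumor 6 and 130 CPM in tumor 4, and near-identical copies of this family were called with them, among which the counting may have split reads. Dmbt1, Hc and Ltf were called through tumor 4, at 11.1, 6.58 and 9.87 CPM there and under 1 CPM in each other tumor, and the downward call, Gm7429, through tumor 1, at 105 CPM against under 1 CPM elsewhere. These genes were singled out after their values were seen. With the tumors ordered by all 18 other tested pigment genes, edgeR and the rank test each called 0 genes.

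Promoters of Tyr and Tyrp1 and of 3 of the 5 genes above are given here because MITF acts through an E-box whose letters read CATGTG, or CACATG on the other strand. Of the 20 pigment genes in the counts, 16 had a promoter in the RefSeq table for GRCm38.p6, and 7 of them held the motif on either strand within 250 bases upstream of the start site (43.8%), against 1067 of the 10740 tested genes with a promoter (9.93%) and 4025 of all 32851 promoters (12.3%). The match says only that these letters are present. The 250 bases before the start site of Tyr (chr7:87493513-87493762, minus strand), Tyrp1 (chr4:80833963-80834212, plus strand), Oca2 (chr7:56239509-56239758, plus strand), Slc24a5 (chr2:125067877-125068126, plus strand) and Trpm1 (chr7:64153585-64153834, plus strand, the copy of its 2 promoters that holds the motif) read as follows, 5′ to 3′, with the motif in capitals.
Tyr: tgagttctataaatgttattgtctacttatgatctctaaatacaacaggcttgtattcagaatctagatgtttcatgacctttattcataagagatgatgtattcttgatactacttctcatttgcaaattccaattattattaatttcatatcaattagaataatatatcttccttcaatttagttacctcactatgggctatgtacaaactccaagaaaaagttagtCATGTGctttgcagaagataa
Tyrp1: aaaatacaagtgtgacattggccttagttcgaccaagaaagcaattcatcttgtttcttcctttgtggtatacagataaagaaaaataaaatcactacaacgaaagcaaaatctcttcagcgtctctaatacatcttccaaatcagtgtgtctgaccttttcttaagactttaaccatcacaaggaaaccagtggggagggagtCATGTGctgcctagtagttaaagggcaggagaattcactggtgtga
Oca2: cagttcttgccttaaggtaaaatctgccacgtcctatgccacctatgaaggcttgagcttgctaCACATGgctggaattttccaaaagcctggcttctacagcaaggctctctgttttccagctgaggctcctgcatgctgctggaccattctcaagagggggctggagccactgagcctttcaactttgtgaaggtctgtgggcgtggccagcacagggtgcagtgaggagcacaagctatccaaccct
Slc24a5: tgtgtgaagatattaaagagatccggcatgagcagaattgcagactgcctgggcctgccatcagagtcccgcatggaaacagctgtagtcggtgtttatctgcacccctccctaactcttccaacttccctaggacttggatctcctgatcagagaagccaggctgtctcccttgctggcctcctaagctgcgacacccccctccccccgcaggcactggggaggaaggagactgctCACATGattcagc
Trpm1: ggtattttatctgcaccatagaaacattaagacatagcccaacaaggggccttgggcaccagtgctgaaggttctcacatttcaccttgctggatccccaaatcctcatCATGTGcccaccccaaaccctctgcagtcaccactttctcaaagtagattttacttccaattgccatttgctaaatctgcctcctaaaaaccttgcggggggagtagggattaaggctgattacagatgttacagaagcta
The motif began 21 bases before the start site in Tyr and 46 bases before it in Tyrp1, on the gene's own strand in both. In Oca2 and Slc24a5 it lay on the other strand, with its first printed base 186 and 13 bases upstream, and in Trpm1 it began 141 bases upstream. The other 2 of the 7 genes were Hps1 and Tspan10, with rho at −0.42 and 0.09 with the Tyr and Tyrp1 order. Myo5a and Rab27a, close to the Tyr and Tyrp1 order, did not hold them in this window.

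Among regulators and receptors of the melanocyte lineage, Mitf and Pax3 lay closest to the order. Mitf ran from 171 CPM in tumor 10 to 429 CPM in tumor 2, with a median of 302 CPM. Its log2 CPM had a Pearson r of 0.84 with the pigment score and a rho of 0.79 (permutation test, adjusted p = 0.025 for r and 0.072 for rho over 8 relations), and tumors 10, 6 and 8 were the lowest. Without tumors 8 and 10, the 2 farthest from the median score, r was 0.68 and did not pass. In edgeR the change was 0.96 ± 0.23 (SE, adjusted p = 0.2842), which DESeq2 called (adjusted p = 0.0240). Pax3, an activator of Mitf, ran from 26.4 to 44.9 CPM with a median of 35.1 CPM, had rho at 0.93 and was called by DESeq2 (adjusted p = 0.0171) and not by edgeR (adjusted p = 0.2794). Sox6 had rho at 0.61, while Tfap2b had −0.59 and the receptor genes Erbb3, Mc1r and Kit had −0.64, −0.28 and 0.01. Over the 14 genes tested of this list of 17 the median rho was 0.14, with 3 genes above and 1 below at an unadjusted p under 0.05 (against 4.4% and 5.29% of all genes) and 0 called by edgeR after adjustment. That median ran from 0.04 to 0.325 when 1 tumor was left out.

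Some genes that mark Schwann cells also lay along the order, though the list of 11 did not as a whole, with a median rho of −0.19, or 0.39 with the order by Slc45a2 and Oca2. The median ran from −0.38 to 0.08 when 1 tumor was left out. Cdh19, a cadherin of neural crest derivatives, ran from 33.7 to 51.8 CPM with rho at 0.95 (edgeR adjusted p = 0.2038, DESeq2 adjusted p = 0.00082). S100b, also made in the neural crest lineage and named after its values were seen, had rho at 0.87. Egr2, a regulator of myelination, and Mbp, a myelin protein gene, had −0.64 and −0.50. In the list of the invasive and neural crest state (16 genes, median rho −0.02), Sox9 had the lowest rho, −0.73.

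Genes of the interferon response, which the transgene is known to induce, were mostly positive along the order, without a call by edgeR. Of 46 interferon-stimulated genes tested of 50, 40 had a positive rho, with a median of 0.39, and 9 had a positive slope at an unadjusted p under 0.05 (against 4.4% of all genes) and 0 a negative one. Usp18, a feedback inhibitor of the receptor, ran from 254 CPM in tumor 8 to 404 CPM in tumor 7 with a median of 348 CPM and rho at 0.79 (edgeR adjusted p = 0.427). Ifit3, the most abundant of the list, had rho at 0.52. Of 23 genes of the IFN-γ response tested of 26, 21 were positive, with a median of 0.50, and 8 had a positive slope at an unadjusted p under 0.05 (against 4.4%) and 0 a negative one. The GTPase gene Irgm1 ran from 398 CPM in tumor 8 to 655 CPM in tumor 3 with a median of 592 CPM and rho at 0.85, and its adjusted p was 0.3149 in edgeR and 0.0483 in DESeq2. It was the only call by DESeq2 on either list, against 58 of all 15950 genes upward. Tgtp2 ran from 496 to 1060 CPM with rho at 0.75, and Nos2 had −0.05.

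Tumor 8 was lowest on both interferon lists, with summed levels of 14052 CPM over the 46 genes and 4298 CPM over the 23, against medians of 20169 and 6509 CPM. Without it, the medians of rho were 0.17 and 0.32. The order by Slc45a2 and Oca2 turned them to −0.12 and −0.04. Tumor 8 also had the lowest level of Ifna4, at 4.66 CPM, and of Ptprc, the pan-leukocyte gene CD45, at 292 CPM, and the part of either in these values was not tested. In IFNα9 tumors the medians on their own pigment order were −0.12 and −0.50, and in GFP tumors −0.39 and −0.53, but no gene of either list had a slope that passed the test of difference from the IFNα4 slope.

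Immune cell lists did not move as a body. The 13 NK cell genes had a median rho of 0.47, 12 of them positive and 0 at an unadjusted p under 0.05, and Klrk1, an activating receptor, ran from 49.7 CPM in tumor 8 to 137 CPM in tumor 1. Without tumor 8 this median was 0.27, and with the order by Slc45a2 and Oca2 it was −0.30. T cell genes (22 tested) had a median of 0.21, monocyte genes (14) 0.26, pan-leukocyte genes (14) 0.07, macrophage genes (17) −0.09, dendritic cell genes (15) −0.15 and MHC class II genes (8) −0.27. These medians moved with single tumors. Without tumor 8 those of T cell and monocyte genes were both 0.01, that of pan-leukocyte genes −0.27 and those of macrophage and dendritic cell genes both −0.32. Without tumor 1 the last 2 were 0.05 and −0.05, without tumor 10 the first 3 were 0.33, 0.42 and 0.23, and the MHC class II median ran from −0.57 without tumor 7 to −0.12 without tumor 3. With the order by Slc45a2 and Oca2 the T cell, monocyte, pan-leukocyte and MHC class II medians turned to −0.28, −0.19, −0.45 and 0.15. In the IFNα9 tumors the T cell and pan-leukocyte medians were −0.79 and −0.69. Apoe, abundant in macrophages, ran from 912 CPM in tumor 8 to 402 CPM in tumor 3 with rho at −0.67. The genes of type 2 inflammation and the IL-4 response had a median of −0.05 over 17 genes, with 3 below at an unadjusted p under 0.05 (against 5.29% of all genes).

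**Figure D4:**
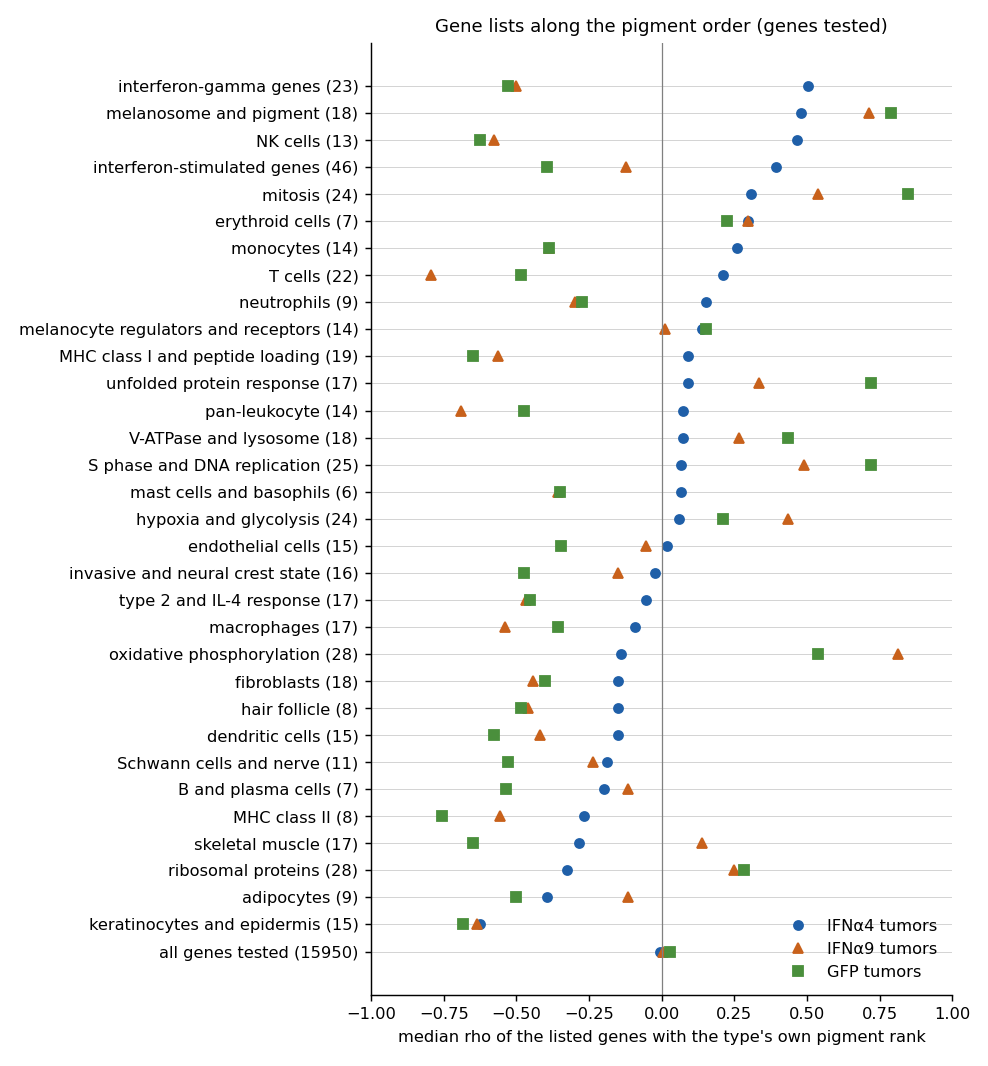
Median Spearman correlation with the pigment rank of each tumor type, for each gene list (number of genes tested in parentheses) and for all genes tested at the bottom. Circles, triangles and squares stand for IFNα4, IFNα9 and GFP tumors. The pigment list is positive in all 3 types (0.48, 0.72 and 0.79) and the keratinocyte list negative in all 3 (−0.62, −0.64 and −0.68), while the IFN-γ list is positive in IFNα4 tumors alone (0.50).

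Genes of the epidermis formed the most negative list. All 15 tested keratinocyte genes of 18 had a rho under 0, with a median of −0.62, and 8 had a negative slope at an unadjusted p under 0.05 (against 5.29% of all genes) and 0 a positive one. None passed adjustment in edgeR, and DESeq2 called 2 downward, against 58 of all 15950 genes. Krt10, the abundant keratin of differentiated epidermis, ran from 2554 CPM in tumor 2 to 3594 CPM in tumor 6 with a median of 2952 CPM and rho at −0.78. The basal keratin genes Krt5 (1188 to 2280 CPM) and Krt14 (453 to 1350 CPM) had rho at −0.75 and −0.62, and Krt17, made in stressed epidermis, −0.78, with changes of −0.67, −0.95 and −1.01 (these 3 were named after their values were seen). Ivl had the weakest correlation, −0.03. The summed level of the 15 genes was highest in tumors 8 and 6, at 13450 and 13309 CPM, and lowest in tumor 3, at 8903 CPM. Without tumor 8 the median was −0.52, and with the order by Slc45a2 and Oca2 −0.28. The keratinocyte medians of −0.64 in IFNα9 tumors and −0.68 in GFP tumors were close to that of the IFNα4 tumors. How far the share of skin in a sample moved the levels of tumor cell genes was not tested.

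**Figure D5:**
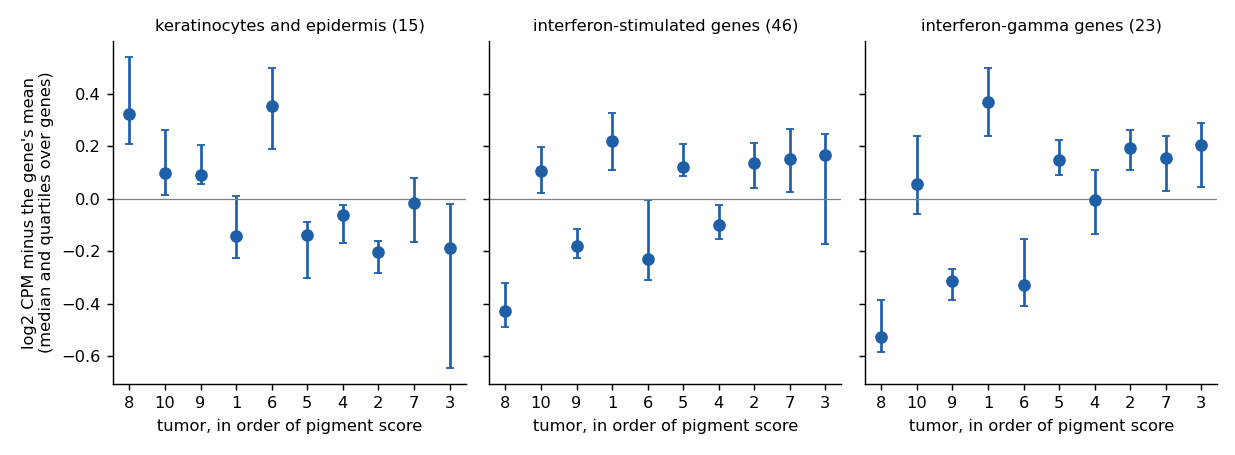
Log2 CPM of the genes of 3 lists, centred on each gene's mean over the 10 B16.IFNα4.gB.luc tumors, with tumors placed from the lowest to the highest pigment score (points, median over the list's genes, whose number is in parentheses; bars, lower to upper quartile). Tumors 8 and 6 lie highest for the keratinocyte list, at 0.32 and 0.35, and tumor 8 lies lowest for both interferon lists, at −0.43 and −0.53.

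Other host tissues and tumor cell programs showed weaker or no movement. All 9 adipocyte genes were negative with a median rho of −0.39, 2 of them at an unadjusted p under 0.05 (against 5.29% of all genes), and the order by Slc45a2 and Oca2 turned the median to 0.33. It was −0.23 without tumor 8 and −0.58 without tumor 4. Cidec, a lipid droplet gene, was at 206 CPM in tumor 8 and 67.9 CPM in tumor 3. Skeletal muscle genes (17) had a median of −0.28, which was −0.03 without tumor 8 and 0.43 with the order by Slc45a2 and Oca2. Of 28 ribosomal protein genes, 26 were negative with a median of −0.33 and 0 at an unadjusted p under 0.05, and the median ran from −0.56 without tumor 7 to −0.125 without tumor 3. Mitosis genes (24) had a median of 0.31, or 0.175 without tumor 8 and −0.07 with the order by Slc45a2 and Oca2, and S phase genes (25) 0.07, against 0.54 and 0.49 in IFNα9 tumors and 0.85 and 0.72 in GFP tumors. Oxidative phosphorylation genes (28) had a median of −0.14 in IFNα4 tumors, 0.81 in IFNα9 tumors and 0.54 in GFP tumors, and the order by Slc45a2 and Oca2 turned the IFNα4 value to 0.45. That value was 0.05 without tumor 8 and −0.31 without tumor 7, and the S phase median was −0.03 without tumor 3. Atp5b, a subunit of ATP synthase and the most abundant gene of this list, had rho at −0.20, 0.89 and 0.65 in the 3 types. No gene of these lists passed the test of a difference in slope between IFNα4 and either other type.

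The genes near the top of the IFNα4 order were then looked up in the 20 tumors that had no part in it, each type ordered by its own pigment score. Of 15950 genes, 148 had a rho of at least 0.8 in IFNα4 tumors (0.928%) and 92 a rho of at most −0.8 (0.577%), with 0.194% at 0.9 or above and 0.0564% at −0.9 or below, which describes the selection and is not a test. In IFNα9 tumors, 139 of the 148 had a positive slope (93.9%, against 52.4% of all genes), and 95 had one at an unadjusted p under 0.05 (64.2%, against 11.5%), with 0 negative at that level. In GFP tumors, 135 were positive (91.2%, against 52.2%) and 94 passed at the unadjusted level (63.5%, against 15.8%). Without GFP tumor 7, 68 passed (45.9%, against 7.47%). Of the 92 genes at the other end, 38 had a negative slope at an unadjusted p under 0.05 in IFNα9 tumors (41.3%, against 9.29%) and 32 in GFP tumors (34.8%, against 9.02%), or 12 without GFP tumor 7 (13%, against 3.82%). The genes within each set are correlated with one another, so these shares describe the sets and carry no p.

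Single genes were less uniform. In IFNα9 tumors, where edgeR called 109 genes upward (0.683%) and 26 downward (0.163%), none of the 3 genes called in IFNα4 tumors was called, though Map7d2 had rho at 0.79 there and 0.94 in GFP tumors. Epha7 had rho at 0.82 in IFNα9 tumors and 0.22 in GFP tumors. In GFP tumors edgeR called 0 genes in either direction (2515 and 1439 at an unadjusted p under 0.05). Pax3 was called in IFNα9 tumors (rho 0.92, edgeR adjusted p = 0.0380), as were Slc24a5 (rho 0.98, adjusted p = 0.0313), Slc45a2 (rho 0.94, adjusted p = 0.0317) and Mlph (rho 0.82, adjusted p = 0.0445). Chic1, Cdh19 and Hlf, near the ends of the IFNα4 order, had rho at 0.32, 0.22 and −0.21 in IFNα9 tumors.

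Whether slopes on the score differed between types was tested in 1 edgeR fit of all 30 tumors. Between IFNα9 and IFNα4 tumors 0 of 15950 genes differed (0.0%). Between GFP and IFNα4 tumors 6 did (0.0376%), 4 with a higher slope in GFP tumors (0.0251%) and 2 with a lower one (0.0125%), and 0 did without GFP tumor 7 or with those 20 tumors alone. None of these 6 was in a gene list, and none is among the genes named above.

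The order was also set against 8 measures of the samples, with p values from 100000 permutations adjusted over the 8. The score and log2 CPM of Ifna4 had r = 0.71 and rho = 0.52 (adjusted permutation p = 0.072 and 0.36), and r = 0.40 without tumors 8 and 10. Ifna4 ran from 4.66 CPM in tumor 8 to 9.73 CPM in tumor 2 with a median of 7.45 CPM. Xist, transcribed from the inactive X chromosome of female cells, had r = −0.10 and rho = 0.03, and Ptprc r = 0.36 and rho = 0.39, neither past the threshold (adjusted permutation p for r = 0.79 and 0.41). The library total had r = 0.58, the TMM scaling factor −0.49, the share of counts in the 10 most abundant genes 0.10 and the first principal component of the 10 tumors, which held 25.5% of their variance, 0.49, with adjusted permutation p of 0.20 to 0.79. The sign of that component was set to match the score, so only the size of its r can be read. Mitf, above, was the only one of the 8 past the threshold for r, and none passed for rho.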

How the data were processed

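RNA of 30 whole tumors was sequenced with a stranded mRNA kit as single-end reads. The authors deposited 1 table of raw counts per gene, made by checking reads with FastQC 0.11.3, aligning them with HISAT2 2.0.4 and counting them per gene with summarizeOverlaps. The submitters' processing notes name mm10, while the study's methods name another mouse build, and the annotation release, the strand setting and the treatment of overlapping genes are not given in the sources used here. Of 39676 identifiers, 39495 were given symbols from GENCODE M21, 36719 in the same version.

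Counts were scaled by TMM factors from all 30 tumors, and log2 CPM used a prior count of 2. The 10 B16.IFNα4.gB.luc tumors were ordered by the mean log2 CPM of Tyr and Tyrp1. Genes that averaged 10 counts or more in these tumors were tested along the order with edgeR 4.0.16 (quasi-likelihood test, R 4.3.3) and with an exact permutation test of Spearman's rho, 2-sided. Benjamini-Hochberg adjustment was over all genes, Tyr and Tyrp1 included, with a threshold of 0.05. The change is the fitted slope times 9 steps, and its SE was derived from the change and its F statistic. DESeq2 1.42.0 was an alternative. Slopes were compared between tumor types in 1 edgeR fit of 30 tumors. Relations with sample measures used 100000 permutations. Totals of 14598517 to 19788383 counts and 10 tumors per type set the precision.

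Genes were named by rule: all tested pigment and regulator genes, Tyr, Tyrp1, Ifna4, Xist, Ptprc and Mitf, up to 10 genes at each end of the order (called ones first, then those with the largest absolute rho, with a mean of at least 100 counts), and the highest, lowest and most abundant member of each other list. Numbered Gm and Rik symbols were passed over. The members, lists and tests were chosen with earlier results of these data known. Replicate numbers were not treated as pairs. The procedures were tested on simulated data. Tables were made with Python 3.11.15, numpy 2.4.6, pandas 2.3.3, scipy 1.17.1 and matplotlib 3.10.9. Alternatives were other scalings, filters, orders, tools and sets of tumors.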

Additional observations from a re-analysis of the deposited data

Results flagged for a closer look

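Among 145 groups of 10 values searched, 1 per named gene or sample measure in the IFNα4 tumors, 5 held a tumor far from the other 9 by Dixon's criterion. Chance alone flags about 1 in 20 groups, or 7.25 of these, so 5 is no more than chance gives. Kit, the receptor for stem cell factor, was highest in tumor 4, at 4.44 log2 CPM, and Erbb3, a neuregulin receptor, was lowest in the same tumor, at 6.50 log2 CPM. Pcna, the sliding clamp of DNA replication, was highest in tumor 3, at 7.41 log2 CPM, and Tap2, a peptide transporter subunit, was lowest there, at 5.46 log2 CPM. Il1rl1, the receptor for IL-33, was lowest in tumor 8, at 5.27 log2 CPM.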

How the results depend on the processing

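The count of genes that rose along the order, 3 in edgeR, was 1 with library totals alone, 1 with no filter, 1 with the order by Tyrp1 alone, 18 with the order by Slc45a2 and Oca2 (where 1 fell), 0 without tumors 8 and 10, 0 with the score in log2 units, 58 with DESeq2 (which called 58 downward against 0) and 0 to 0 when any 1 tumor was left out. The 6 genes called upward by rho became 3 with TMM factors from the 10 tumors alone, 0 with library totals alone, 3 with no filter, 1 by Tyrp1 alone, 0 by Slc45a2 and Oca2, 0 without tumors 8 and 10 and 0 to 2 when 1 tumor was left out. The 0 downward calls became 0 to 2, with 2 without tumor 7 and 1 without tumor 10. Epha7 and Map7d2 lost their edgeR call with library totals alone, no filter, Tyrp1 alone, either other order and in all 10 fits without 1 tumor, and both kept a positive change in each of these. Of the 3 genes called on the rank, 2 were called in IFNα9 tumors and 1 in GFP tumors when the score of those tumors in log2 units replaced their rank, against 0 on the rank. With the order by all 18 other tested pigment genes, chosen after seeing the data, both tests called 0 genes upward.

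The 6 slopes that differed between GFP and IFNα4 tumors became 0 with library totals alone, 0 without GFP tumor 7, 0 with only those 20 tumors and 1 without IFNα9 tumor 10, the last chosen after seeing the data. With a replicate block the count was 2, and 0 between IFNα9 and IFNα4 tumors. The numbers do not pair the tumors, since deviations of same-numbered tumors had correlations of −0.27 to 0.27. The r of Mitf was 0.68 without tumors 8 and 10 (adjusted permutation p = 0.483) and 0.77 to 0.87 when 1 tumor was left out, missing the threshold without tumor 2, 5 or 10. The r of Ifna4 was 0.52 to 0.78 and passed without tumor 3. Of 2895 alternatives for 138 named genes, 2835 kept their side of the threshold and 2727 the sign of the slope. The cause of these differences was not tested.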

Other observations

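Erythroid genes had a positive rho in all 7 members tested, with a median of 0.30 and 0 at an unadjusted p under 0.05. The median was 0.57 without tumor 8 and 0.75 with the order by Slc45a2 and Oca2. Of 18 genes of the vacuolar proton pump and the lysosome, 4 had a positive slope at an unadjusted p under 0.05 (against 4.4% of all genes) and 0 a negative one, with a median rho of 0.07. Genes of the unfolded protein response (17) had a median of 0.09 in IFNα4 tumors, 0.33 in IFNα9 tumors and 0.72 in GFP tumors, and MHC class I and peptide loading genes (19) had 0.09, −0.56 and −0.65. Fibroblast genes (18) had a median of −0.15, endothelial genes (15) 0.02, hypoxia and glycolysis genes (24) 0.06, neutrophil genes (9) 0.15, mast cell and basophil genes (6) 0.07, B and plasma cell genes (7) −0.20 and hair follicle genes (8) −0.15. Of these 8, 3 had a negative slope at an unadjusted p under 0.05 (against 5.29% of all genes) and 0 a positive one. When 1 tumor was left out, the endothelial median ran from −0.07 to 0.22, hypoxia and glycolysis −0.05 to 0.40 and neutrophil −0.02 to 0.23. The mast cell and basophil median ran from −0.175 to 0.14 and that of B and plasma cells from −0.33 to 0.03. Those of fibroblast and hair follicle genes stayed negative.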
